A study of Homo sapiens with 6 samples.

Results

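The 10 keratin genes KRT7, KRT8, KRT10, KRT15, KRT17, KRT18, KRT19, KRT80, KRT81 and KRT86 were followed in MDA-MB-231 cells, a human triple-negative breast cancer line with a mesenchymal shape. They were taken by symbol from the 63241 Ensembl genes of each count file, and a list of 54 human keratin genes was read beside them. The cells carried the wild-type genotype and received either 5 μM NCD (nitidine chloride, a plant benzophenanthridine alkaloid) or the vehicle, 0.1% DMSO, for 24 h. RNA-seq libraries numbered 3 in each of the 2 groups, and the labels do not say whether they came from separate cultures, so p-values measure the spread between these libraries. For NCD replicates 2 and 3 a description field names other cell line numbers, while the cell line field gives MDA-MB-231. A single line in monolayer culture is the whole model, and whether the sequenced NCD cultures also received DMSO is not stated.

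Keratins are the intermediate filament proteins of epithelial cells, and each filament is built from pairs of an acidic type I chain and a basic type II chain. KRT8 and KRT18 are the primary pair of simple epithelia, and KRT7 and KRT19 join them in glandular and ductal cells such as those of the breast. KRT15 and KRT17 belong to basal and hair follicle epithelium, KRT10 to the upper layers of the epidermis, KRT80 to the margin of many epithelial cells, and KRT81 and KRT86 to hair. Loss of keratins and gain of vimentin is a classical sign of the epithelial to mesenchymal transition.

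How far the keratin genes resemble each other bears on how reads could be assigned to them, and this differed between the genes. Over the coding sequences, pairs of the same type were identical at 64.3% to 94.2% of aligned bases, and pairs of a type I and a type II gene at 58.9% to 65.1%. The 94.2% belongs to KRT81 and KRT86, and the next closest pair, KRT7 and KRT8, was identical at 76.1%.

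The 60 coding bases of KRT18 that were most alike in the other type I keratins are shown to make this likeness visible (GENCODE release 29, GRCh38), with capitals where a gene differs from KRT18. The stretch runs from exon 2 into exon 3 in each gene, at chr12:52950364-52950762 (plus) for KRT18, and on the minus strand at chr17:41524987-41525237 for KRT19, chr17:41622499-41622996 for KRT17, chr17:40820655-40821081 for KRT10 and chr17:41516952-41517129 for KRT15, introns included in these spans.
KRT18: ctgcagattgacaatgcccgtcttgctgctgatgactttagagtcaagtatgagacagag
KRT17: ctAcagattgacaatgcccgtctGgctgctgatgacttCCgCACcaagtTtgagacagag
KRT19: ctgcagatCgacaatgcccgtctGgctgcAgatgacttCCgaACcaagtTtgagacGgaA
KRT10: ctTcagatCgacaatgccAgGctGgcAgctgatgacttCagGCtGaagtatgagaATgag
KRT15: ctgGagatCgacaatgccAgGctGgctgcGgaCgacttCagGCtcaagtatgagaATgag
The genes differed from KRT18 at 8 to 12 of these 60 bases.

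KRT81 lies on the opposite strand within the annotated span of KRT86, which also overlaps KRT7 on the same strand, each with 0 shared exonic bases. KRT81 and KRT86 were identical at 94.2% of 1454 aligned coding bases, with a longest identical run of 605 bases. Of all windows of 50 bases in the KRT81 transcript, 44.6% also occurred in a transcript of another gene, and for KRT86 this was 39.2%. For most of these windows the other gene was the partner. The 90 coding bases in which they differ most are shown, and capitals mark the 19 differing bases. Over the whole alignment 1369 of the 1454 bases were identical, so other differing bases lie outside this stretch. The stretch lies at chr12:52286447-52287112 (minus) for KRT81 and chr12:52306270-52308450 (plus) for KRT86, each spanning exons 7 to 9 with the introns between.
KRT81: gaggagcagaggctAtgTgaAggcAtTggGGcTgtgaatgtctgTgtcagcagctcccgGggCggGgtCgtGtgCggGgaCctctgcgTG
KRT86: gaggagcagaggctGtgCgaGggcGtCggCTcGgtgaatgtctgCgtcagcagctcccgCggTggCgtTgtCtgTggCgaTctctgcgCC
Windows were also shared with another gene for 37.1% of KRT8 and 31.8% of KRT18, and for 17.4% of KRT17, where in each case the gene sharing most windows was a pseudogene named after it. KRT7, KRT10, KRT15, KRT19 and KRT80 shared at most 1.79%.

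The libraries held 18223594 to 19410833 counts under DMSO and 18232169 to 21629653 with NCD, and libraries of a group correlated at 0.9874 or more (log2 CPM over tested genes). Counts were scaled by TMM and are given as CPM (counts per 1000000 of the scaled library size), and 15295 genes that passed a filter on low counts were tested with edgeR's quasi-likelihood test. A gene is said to rise or fall where its p, adjusted by Benjamini and Hochberg over these genes, was below 0.05. It is called differentially expressed where, in addition, its log2 ratio (the log2 fold change, NCD over DMSO) was above 1 or below -1. The receptors that define triple-negative cells were near absence for ESR1 and PGR, with at most 7 counts in any library, and ERBB2 had 37.2 ± 1.76 CPM (SD, n = 3) with DMSO. CDH1, the epithelial cadherin, had 1 to 4 counts per library, and VIM, the mesenchymal vimentin, 2955.7 to 3155.9 CPM with DMSO.

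With NCD, 8 of the 9 keratins that could be tested rose and KRT15 fell, and every one of these 9 had no overlap between the groups. Among all tested genes 35.3% rose and 34.1% fell. In 37.2% of them every NCD library lay above every DMSO library, and in a further 35.3% every NCD library lay below. The differentially expressed keratins were KRT81 and KRT7, both higher, and KRT15, lower. Of all tested genes 31.0% were differentially expressed, 13.5% higher and 17.5% lower. The median log2 fold change of the 9 keratins was 0.63, against 0.04 for all tested genes. Among the 8759 tested genes with a span from 4.0 to 59.9 kb, the range of the tested keratins, 48.1% rose and the median was 0.27. These genes are not matched in length to the keratins: KRT8 spans 52.8 kb and KRT86 59.9 kb, but the other tested keratins at most 23.0 kb. Any part of gene length in the keratin values was not tested. Scaling by library totals in place of TMM added 0.20 to the median log2 fold change of all genes and kept the direction and the call of every tested keratin, while it moved the share of differentially expressed genes that were higher from 43.6% to 56.2%.

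**Figure D1:**
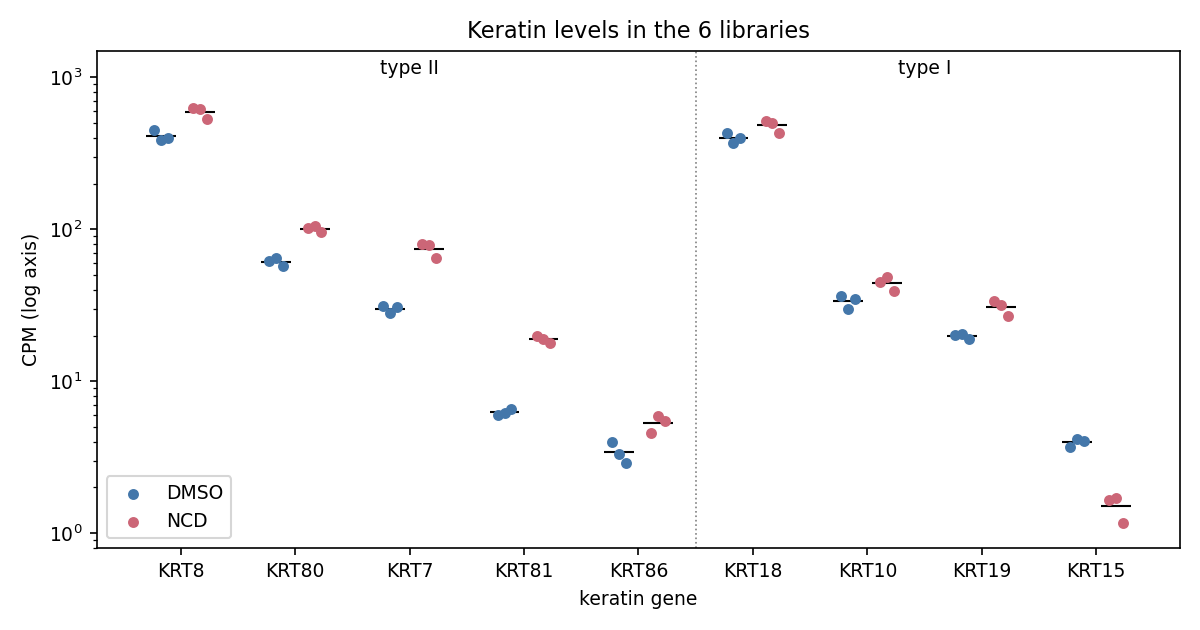
CPM on a log axis of the 9 tested keratins in the 3 DMSO (blue) and 3 NCD (red) libraries, with bars at the group means, type II genes on the left and type I genes on the right. KRT8 and KRT18 lie near or above 370.2 CPM in every library, all other keratins at or below 105 CPM, and KRT15 is the gene whose NCD points lie below its DMSO points. KRT17 is left out because it did not pass the filter on low counts.

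The pair of simple epithelia, KRT8 and KRT18, made up most of the keratin mRNA in both groups. KRT8 (ENSG00000170421, type II; chr12:52897187-52949954, minus strand) had 448, 387 and 401 CPM in the DMSO libraries and 634, 623 and 531 CPM in the NCD libraries. This was a rise by a log2 ratio of 0.53 ± 0.09 (SE, edgeR adjusted p = 0.0005), or 1.45-fold. KRT18 (ENSG00000111057, type I; chr12:52948871-52952901, plus strand), its partner and neighbour, had 430.5, 370.2 and 398 CPM with DMSO and 515, 502 and 432 CPM with NCD. The lowest NCD library of KRT18 lay just above its highest DMSO library. Its log2 ratio of 0.27 ± 0.09 (SE) gave an adjusted p of 0.0181 from edgeR. That call is the least secure among the 9: it was lost without DMSO replicate 2 (edgeR adjusted p = 0.0661), DMSO replicate 3 (0.0928), NCD replicate 1 (0.111) or NCD replicate 2 (0.0665).

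The balance within the pair differed between the groups. The ratio of KRT8 to KRT18 in CPM per kb of transcript was 0.835 to 0.868 in the DMSO libraries and 1.02 to 1.03 in the NCD libraries, with no overlap. The genes are annotated on opposite strands with 525 shared exonic bases, and the strand setting of the counting is not given in the sources used here, so reads from those bases cannot be told apart. Annotated pseudogenes took few of the reads: the 51 of KRT8 together had 0.414% to 0.657% of the counts of KRT8, and the 68 of KRT18 had 0.158% to 0.341% of those of KRT18. Among these, KRT8P12 alone passed the filter, with 20 to 25.6 counts with DMSO, 29 to 34 with NCD and a log2 fold change of 0.17 (edgeR adjusted p = 0.544). Adding the pseudogene counts to KRT8 and KRT18 left their log2 fold changes at 0.53 and 0.27.

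KRT7, a type II chain of glandular epithelium, had the largest fold of the 4 keratins of simple epithelia. KRT7 (ENSG00000135480; chr12:52232520-52252186, plus strand) had 31.3, 28.0 and 30.6 CPM with DMSO and 80.2, 79.0 and 65.1 CPM with NCD. Its lowest NCD library was 2.08 times its highest DMSO library. The log2 ratio was 1.32 ± 0.10 (SE, edgeR adjusted p = 2.82e-06), or 2.50-fold, and over the 6 fits lacking a library its log2 ratio ran from 1.24 to 1.39. KRT7-AS, a noncoding gene on the opposite strand with 282 shared exonic bases, had 3.02 to 8.13 counts under DMSO and 11.1 to 20.2 with NCD, too few for the test. KRT19 (ENSG00000171345, type I; chr17:41523617-41528308, minus strand), the short keratin without most of the tail domain, had 20.1, 20.5 and 19.0 CPM with DMSO and 33.6, 31.6 and 26.9 CPM with NCD. It rose by a log2 ratio of 0.63 ± 0.10 (SE, edgeR adjusted p = 0.000416), or 1.54-fold.

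KRT80, a type II keratin at the margin of epithelial cells, also rose. KRT80 (ENSG00000167767; chr12:52168996-52192000, minus strand) had 62.3, 64.3 and 57.6 CPM with DMSO and 102, 105 and 96.7 CPM with NCD. The libraries of each group were close together, and the log2 ratio was 0.72 ± 0.07 (SE, edgeR adjusted p = 1.36e-05). This 1.65-fold rise was below the fold threshold. By reads KRT80 came next after KRT8 and KRT18, but its transcript of 3.86 kb is the second longest among the 10, and per kb it had 15.9 ± 0.90 CPM (SD, n = 3) with DMSO, the same as the 15.9 ± 1.57 of KRT10.

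The hair keratins KRT81 and KRT86 were expressed at low levels with DMSO and both rose. KRT81 (ENSG00000205426, type II; chr12:52285913-52291534, minus strand) had 6.03, 6.17 and 6.58 CPM with DMSO and 19.8, 19.0 and 17.9 CPM with NCD. This was the largest fold among the 9 tested keratins, with a log2 ratio of 1.59 ± 0.10 (SE, edgeR adjusted p = 1.02e-06), or 3.02-fold. KRT86 (ENSG00000170442, type II; chr12:52249300-52309163, plus strand) had 3.98, 3.34 and 2.91 CPM with DMSO and 4.54, 5.90 and 5.50 CPM with NCD. Its log2 ratio was 0.64 ± 0.18 (SE, edgeR adjusted p = 0.00982), and without DMSO replicate 3 the adjusted p was 0.0524. The deposited counts of both genes hold fractions of reads, for example 100.1 and 65.7 in DMSO replicate 1, as estimated counts do where reads match several transcripts. The ratio of KRT81 to KRT86 counts went from 1.52 to 2.25 with DMSO to 3.24 to 4.36 with NCD. Summed into a single feature, which does not depend on how shared reads were split between them, the pair had 166, 168 and 173 counts under DMSO and 557, 482 and 502 with NCD, a log2 fold change of 1.33 (edgeR adjusted p = 1.3e-06).

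The keratins of stratified epithelium moved in different directions. KRT10 (ENSG00000186395, type I; chr17:40818117-40822595, minus strand), the keratin of differentiating epidermis, had 36.4, 30.0 and 34.9 CPM with DMSO and 45.3, 48.5 and 39.0 CPM with NCD. It rose by a log2 ratio of 0.39 ± 0.11 (SE, edgeR adjusted p = 0.00906), or 1.31-fold. KRT10-AS1, named TMEM99 in GENCODE release 29, lies across KRT10 on the opposite strand with 56 shared exonic bases and fell from 59.0 ± 5.69 to 32.6 ± 3.84 CPM (SD, n = 3 each). Its log2 ratio was -0.85 ± 0.11 (SE, edgeR adjusted p = 9.14e-05). KRT10-AS1 had 1.64 to 1.81 times the counts of KRT10 with DMSO and 0.723 to 0.763 times with NCD, so the overlapping genes changed places.

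KRT15 was the only one of the 10 that fell. KRT15 (ENSG00000171346, type I; chr17:41513743-41522529, minus strand), a keratin of basal cells and of the hair follicle stem cell region, had 61, 74 and 74 counts under DMSO and 38, 33 and 25 with NCD. In CPM these were 3.68, 4.19 and 4.06 against 1.66, 1.71 and 1.17, with a wide gap between the groups. The log2 ratio was -1.39 ± 0.20 (SE, edgeR adjusted p = 0.000243), so the level with DMSO was 2.63 times that with NCD, and the value ran from -1.495 to -1.253 over the 6 fits lacking a library. KRT15 and KRT19 are neighbours on chromosome 17 and were detected together, but changed in opposite directions. KRT17 (ENSG00000128422, type I; chr17:41619441-41624842, minus strand), a keratin of skin appendages and of basal-like breast cancers, had 0, 1 and 0 counts under DMSO and 1, 3 and 1 with NCD. It did not pass the filter and was at or below 3 counts in every library, so no difference was detectable at this depth.

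**Figure D2:**
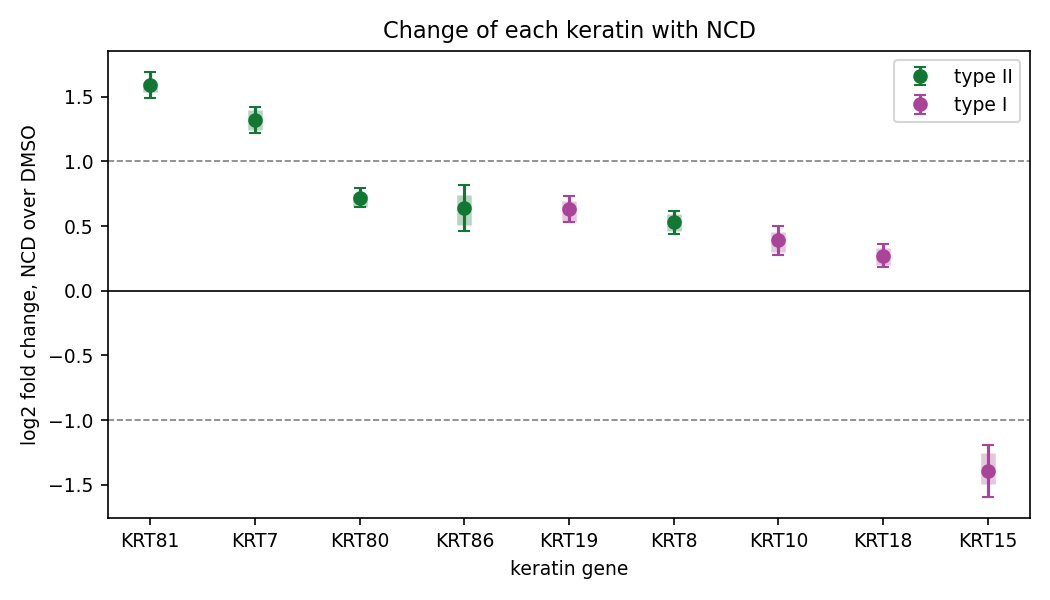
Log2 fold change of NCD over DMSO for the 9 tested keratins, with type II genes in green and type I genes in purple, standard errors as thin bars, the range over the fits without 1 library as pale bars, and dashed lines at 1 and -1. KRT81 and KRT7 lie above 1 and KRT15 below -1, and the type II genes lie between 0.53 and 1.59.

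Per length, the order of the levels with DMSO was KRT18 with 256 ± 19.3 CPM per kb (SD, n = 3), KRT8 with 219 ± 16.9, KRT7 with 17.1 ± 1.01, KRT10 and KRT80 with 15.9 each, KRT19 with 14.3 ± 0.565, KRT81 with 3.24 ± 0.149, KRT86 with 1.63 ± 0.258, KRT15 with 0.759 ± 0.0507 and KRT17 with 0.0124 ± 0.0215. KRT7, KRT10 and KRT80 did not differ beyond their SDs between libraries, which leave out that the genes were measured in the same libraries. KRT18 and KRT8 were more than all the others summed, with 86.8% to 87.8% of the summed keratin level per kb. With NCD the order became KRT8 with 317 ± 30.1 CPM per kb (SD, n = 3), KRT18 with 309 ± 28.9, KRT7 with 42.6 ± 4.76, KRT80 with 26.2 ± 1.12, KRT19 with 22.1 ± 2.47, KRT10 with 20.9 ± 2.28, KRT81 with 9.80 ± 0.493, KRT86 with 2.54 ± 0.333, KRT15 with 0.289 ± 0.0573 and KRT17 with 0.0540 ± 0.0419. KRT8 and KRT18 then lay within their SDs between libraries, as did KRT19 and KRT10, while KRT7 had moved clear of the rest. Within each NCD library, however, KRT8 was 1.02 to 1.03 times KRT18 per kb. The place of KRT15 depends on its transcript: 5.24 kb was used, and with another annotated transcript of 2.39 kb its DMSO level was 1.66 ± 0.111 CPM per kb, like that of KRT86.

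The members together took 914 to 1042 CPM in the DMSO libraries and 1214.8 to 1436.2 CPM in the NCD libraries, without overlap, a 1.40-fold difference of the means. These sums are descriptions over the chosen genes and carry no test. The type II sum per kb went from 257 to 398, a ratio of 1.55, and the type I sum from 287 to 353, a ratio of 1.23. Type II chains were at 0.875 to 0.912 times the type I sum in the DMSO libraries and at 1.12 to 1.13 times in the NCD libraries. Within type II, KRT7 went from 6.44% to 6.99% of the sum with DMSO to 10.4% to 10.8% with NCD, and KRT8 from 84.6% to 85.9% down to 79.2% to 79.9%. Within type I, KRT19 went from 4.70% to 5.54% up to 6.16% to 6.43%, and KRT15 from 0.228% to 0.3% down to 0.0708% to 0.0887%. CPM are shares of a library, so in bulk RNA more cells with keratin, more keratin mRNA per cell and less of other mRNA cannot be told apart.

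**Figure D3:**
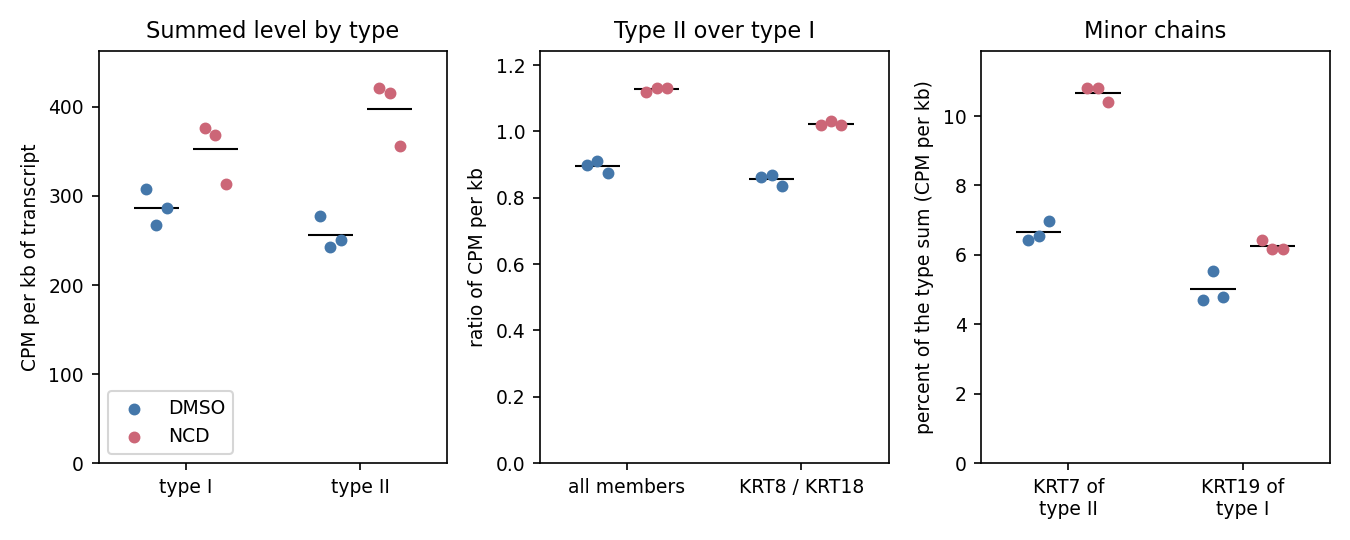
Left, summed type I and type II levels in CPM per kb of transcript; middle, the ratio of type II to type I over all members and for KRT8 to KRT18; right, the percent of the type sum held by KRT7 and KRT19. Points are the 3 DMSO (blue) and 3 NCD (red) libraries with bars at the means, axes start at 0, and the groups do not overlap in any of the 6 quantities.

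The rest of the keratin family was close to silent. Of the 54 keratin genes listed, 31 had 0 counts in every library, among them KRT5, KRT14, KRT6A and KRT6B of basal and activated epidermis, and the 10 members took at least 99.8% of the keratin counts of each library. Of the 44 other keratins, KRT34 alone passed the filter, a type I hair keratin. It had 1.21, 1.19 and 0.822 CPM with DMSO and 2.53, 1.91 and 1.86 CPM with NCD, and it rose by a log2 ratio of 0.98 ± 0.26 (SE, edgeR adjusted p = 0.00806). The remaining 43 had at most 8 counts in any library, the highest being KRT16, a keratin of activated epidermis, with 0, 1 and 6 counts under DMSO and 6, 8 and 2 with NCD.

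Most other intermediate filament genes did not rise. As background for this list and those below, 35.3% of all tested genes rose and 34.1% fell, with a median log2 fold change of 0.04. Of 9 tested from a list of 16, 1 rose, 5 fell and 3 did not pass, with a median log2 fold change of -0.20. Scaled by library totals, 3 rose and 2 fell with a median of -0.01, the calls of VIM and LMNA being among those lost, and without NCD replicate 2 the fallers were 3. VIM fell by 0.21 on the log2 scale (SE 0.07; edgeR adjusted p = 0.0256), and this call was lost without NCD replicate 2 (adjusted p = 0.0717) and with library totals, where the log2 fold change was -0.015. VIM still had 1.89 to 2.05 times the summed CPM of the 10 keratins with NCD, against 3.03 to 3.34 times with DMSO. LMNB1, the nuclear lamin B1, fell most, from 209 ± 8.14 to 91.7 ± 2.56 CPM (SD, n = 3 each), a log2 fold change of -1.19 (edgeR adjusted p = 2.36e-07). GFAP, the filament of astrocytes, had 0.877 ± 0.0476 and 2.68 ± 0.369 CPM (SD, n = 3 each), a log2 fold change of 1.60 (edgeR adjusted p = 0.000202).

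Genes for proteins that anchor keratin filaments included risers and fallers, as did all tested genes, of which 35.3% rose and 34.1% fell. Of 12 tested desmosome and plakin genes, 4 rose, 6 fell and 2 did not pass, with a median log2 fold change of -0.15, against 5 risers, 5 fallers and a median of 0.04 with library totals. JUP, the plakoglobin of desmosomes and adherens junctions, rose from 4.88 ± 0.389 to 15 ± 0.522 CPM (SD, n = 3 each), a log2 ratio of 1.62 ± 0.11 (SE, edgeR adjusted p = 1.64e-06). DSP, the desmoplakin that ties keratin to the desmosome, and PKP3, a plakophilin, were named after their values were seen. DSP had 40.0, 47.0 and 38.0 CPM with DMSO and 85.6, 85.5 and 95.8 CPM with NCD, a log2 ratio of 1.09 ± 0.09 (SE, edgeR adjusted p = 7.28e-06), and PKP3 had a log2 fold change of 1.15. On the other side were PKP4, with a log2 fold change of -3.08, the cytoskeletal cross-linkers DST with -3.21 and MACF1 with -1.67, and PLEC, the plectin that links keratin to hemidesmosomes, with -0.55. The genes that fell by more than 1 span 225.9 kb (PKP4), 496.6 kb (DST) and 405.9 kb (MACF1), and those that rose by more than 1 span 32.3 kb (JUP), 45.1 kb (DSP) and 12.3 kb (PKP3). Whether gene length had a part in these changes was not tested.

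Hemidesmosome genes, which hold keratin filaments to the basement membrane, had no riser with TMM scaling. Of 7 tested, 5 fell and 2 did not pass, with a median log2 fold change of -0.55, and with library totals 5 fell and 1 rose. ITGA6, the integrin alpha 6 chain, had 270.1, 306 and 265 CPM with DMSO and 67.2, 62.6 and 77.0 CPM with NCD, a log2 ratio of -2.02 ± 0.09 (SE, edgeR adjusted p = 1.64e-07). LAMA3 and LAMB3, laminin chains of the epithelial basement membrane, had log2 fold changes of -1.57 and -0.55. Of 14 genes whose products bind, fold or cleave keratins, 5 rose and 6 fell, and the median was 0.08. Among all tested genes 35.3% rose, 34.1% fell and the median was 0.04. DNAJB6, a cochaperone that binds KRT18, fell from 431 ± 12.5 to 204 ± 9.06 CPM (SD, n = 3 each; edgeR adjusted p = 4.76e-07), while HSPB1, a small heat shock protein found with KRT8 and KRT18, rose by 1.05 on the log2 scale (edgeR adjusted p = 1.49e-05).

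Among epithelial identity genes the picture was mixed. Of 20 listed, 13 were tested, and 6 rose, 1 fell and 6 did not pass, with a median log2 fold change of 0.57. With library totals 9 rose and 1 fell. CD24, a surface protein of luminal cells, rose from 5.56 ± 0.0355 to 31.1 ± 1.70 CPM (SD, n = 3 each), a log2 fold change of 2.48 (edgeR adjusted p = 5.64e-08). GRHL1, a grainyhead factor of epithelia, rose by 2.52 and ESRP1, an epithelial splicing regulator, by 1.85, both from levels under 2 CPM. CLDN4, a tight junction claudin, fell by 0.82 on the log2 scale (edgeR adjusted p = 1.9e-05), and CDH1 had 1, 1 and 1 counts under DMSO and 3, 4 and 3 with NCD, below the filter.

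Of 18 listed regulators of keratin genes, 11 were tested, and 5 rose, 3 fell and 3 did not pass, with a median log2 fold change of 0.25. KLF5, a factor of epithelial cells, had 23.9, 26.8 and 26.5 CPM with DMSO and 73.4, 69.9 and 74.8 CPM with NCD, a log2 ratio of 1.5 ± 0.07 (SE, edgeR adjusted p = 2.6e-07). KLF4 and TFAP2A, also factors of epithelial cells, had log2 fold changes of 1.55 and 1.54. SOX9, with the highest mean CPM of this list, fell, with a log2 fold change of -0.62 (edgeR adjusted p = 2.67e-05). ZEB1, a repressor of epithelial genes, had 64.6, 108 and 78.0 CPM with DMSO and 7.78, 7.40 and 14.0 CPM with NCD, a log2 ratio of -3.10 ± 0.27 (SE, edgeR adjusted p = 8.15e-06), and its gene spans 211.3 kb. SNAI1, another repressor of epithelial genes, named after its values were seen, went the other way, with a log2 fold change of 2.25 (edgeR adjusted p = 1.43e-05). ZEB2 and SNAI2, of the same list, were also named after their values were seen. ZEB2 fell, with a log2 fold change of -1.07 (edgeR adjusted p = 8.83e-05), and SNAI2 did not pass, at -0.14 (edgeR adjusted p = 0.149). The part of these factors in the keratin changes, and that of gene length in the change of ZEB1, was not tested.

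**Figure D4:**
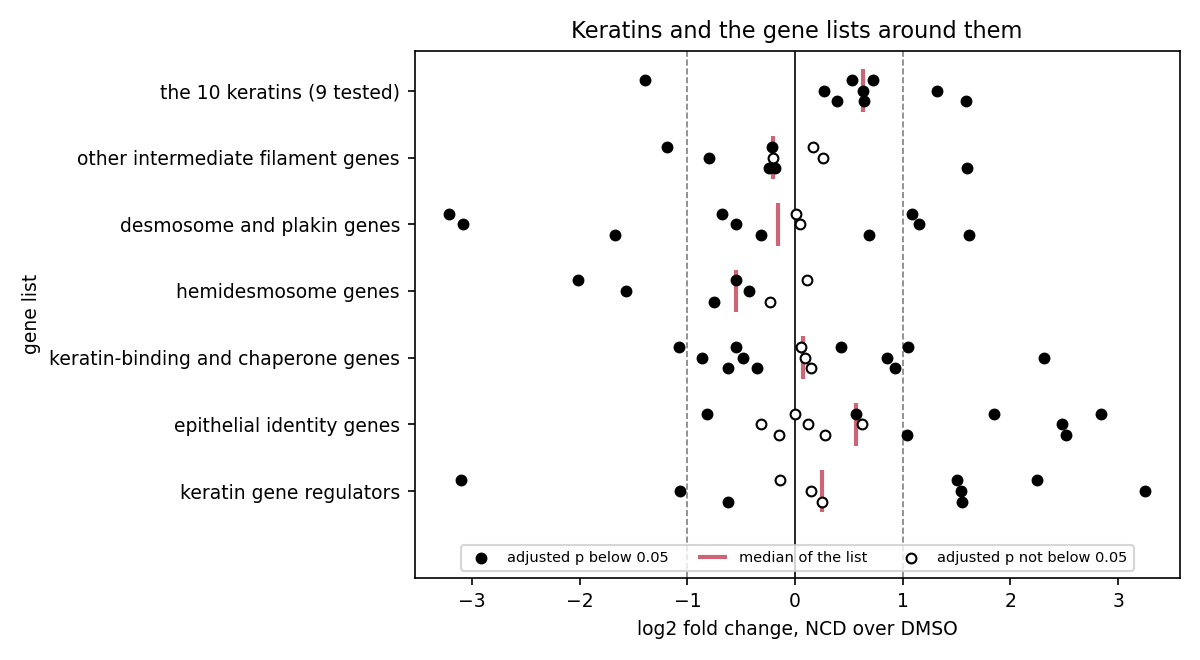
Log2 fold change of NCD over DMSO (x axis) for the tested keratins, at the top, and the tested genes of 6 other lists. Filled points passed an adjusted p below 0.05, open points did not, red bars are list medians and dashed lines mark 1 and -1. The keratin median is 0.63, that of epithelial identity genes 0.57, that of hemidesmosome genes -0.55, and each of the lists drawn holds genes on both sides of 0.

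Markers of other cell types were low. Summed over 8 immune markers, levels were 0.121 to 0.713 CPM with DMSO and 0.559 to 1.14 CPM with NCD, with PTPRC at 0 or 1 count in each library. Summed over 5 endothelial markers they were 5.54 to 6.05 and 6.25 to 7.93 CPM, mostly from TIE1. Of 7 fibroblast markers 2 were tested, COL1A1 and PDGFRB, and both rose, with log2 fold changes of 2.24 and 1.68. The sum over these 7 was 4.19 to 5.54 CPM with DMSO and 18.6 to 19.9 CPM with NCD, while DCN, LUM, PDGFRA, COL1A2 and THY1 had at most 3 counts in any library. Any part of such cells in the keratin values was not tested.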

How the data were processed

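RNA-seq of MDA-MB-231 cells was analysed, with 3 DMSO and 3 NCD libraries grouped by their titles. The authors deposited 1 table of RSEM expected counts per Ensembl gene for each library, not normalized, after alignment. The submitters' processing notes name HISAT2, RSEM and GRCh38, and the annotation release, tool versions and strand setting are not given in the sources used here. In each library 25 lines held no gene and were skipped. Expected counts were rounded and tested with edgeR 4.0.16 in R 4.3.3 (filterByExpr, TMM, glmQLFit, glmQLFTest, Benjamini-Hochberg over 15295 genes). Standard errors (SE) were obtained as the size of the log2 ratio over the root of its F statistic. The authors themselves tested with DESeq2. Symbols matched 62666 of 63241 identifiers.

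The members and gene lists were chosen with earlier results of these data known. Named genes are the 10 keratins, other keratins and pseudogenes past the filter, overlapping genes with counts, and up to 4 genes per list with the smallest p among those differentially expressed and up to 2 with the highest mean CPM. Some of these are not printed. KRT5, KRT14, KRT6A, KRT6B, LMNA, CDH1, DSP, PKP3, SNAI1, SNAI2, ZEB2, CASP6, EPCAM, IVL, PGR, PTPRC, DCN, LUM, PDGFRA, COL1A2 and THY1 stand outside this rule and were named after their values were seen. Levels per kb use the transcript with the best APPRIS rank and lowest number in GENCODE release 29 (GRCh38). Coding sequences came from its transcripts and were aligned with Biopython 1.88. On simulated counts, 190 of 196 genes changed by 1.5 on the log2 scale were recovered among 15003 tested, with 12 false calls. Smaller changes were not simulated, and far fewer genes changed there than in these data. The simulation therefore does not bear on the keratins with smaller folds or on the scaling. Pairs of libraries in a group differed by more than sampling noise (chi-square per degree of freedom at least 2.05). Exact two-sided permutation tests of 3 against 3 libraries on the CPM of a gene cannot go below p = 0.1, the value for each of the 9 tested keratins. Alternatives were DESeq2 1.42.0, limma-voom (limma 3.58.1), library totals, RLE size factors, other filters, a replicate block, a prior count of 2, summed paralogs, added pseudogenes and each library left out. Some items are not reported here.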

Additional observations from a re-analysis of the deposited data

How the results depend on the processing

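The 9 tested keratins kept their direction under every alternative run, and 123 of the 128 alternative values that have an adjusted p kept their side of its threshold. The other 5 were fits without 1 library. Without each library the log2 fold change ranged from 0.201 to 0.332 for KRT18 (call lost in 4 of 6 fits) and from 0.506 to 0.737 for KRT86 (lost in 1), and the number of keratins past the adjusted p from 7 to 9, while 3 were differentially expressed in each fit. The cause was not tested. DESeq2, limma-voom, library totals, RLE size factors, no filter, and at least 10 counts in every library each gave the same counts of 8 keratins higher and 1 lower, with 2 and 1 differentially expressed. KRT34, not among the 10, passed the fold threshold with library totals, at 1.17, and in 4 of the 6 fits without 1 library. Libraries with the same replicate number did not deviate together, with correlations of deviations of 0.216, -0.185 and 0.023. With the replicate number as a block, 9 keratins still passed, with KRT7 at 1.31, KRT81 at 1.59, KRT15 at -1.40 and KRT18 at 0.272 (edgeR adjusted p = 0.0236), and 4723 genes were differentially expressed against 4736. Counts of differentially expressed genes over all tested genes ranged from 3683 with at least 10 counts in every library to 5545 without a filter, and from 4653 to 5049 without each library. Depth limits KRT17 and most other keratins, and intervals over counts cover counting error only.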

Other observations

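Genes of squamous differentiation, the programme that KRT10 accompanies in skin, were near the limit of detection. Of 15 listed, 14 were matched, 4 were tested and 9 had 0 counts in every library, including IVL, the involucrin of the cell envelope. FLG, the filaggrin that bundles keratin filaments, had 6.19 ± 1.27 CPM with DMSO and 1.48 ± 0.231 CPM with NCD (SD, n = 3 each), a log2 fold change of -2.05 (edgeR adjusted p = 2.73e-05). CNFN, the cornifelin of the cell envelope, had 4, 5 and 6 counts under DMSO and 35, 26 and 33 with NCD, and TGM1, the transglutaminase of keratinocytes, had 3, 14 and 6 against 37, 17 and 29.

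CASP6, a caspase that cleaves KRT18 during apoptosis, rose from 21.1 ± 1.97 to 40.4 ± 0.384 CPM (SD, n = 3 each), with a log2 fold change of 0.93 (edgeR adjusted p = 1.18e-05). EPCAM, an adhesion protein of epithelial cells, had 2.71 ± 0.182 and 4.01 ± 0.214 CPM (SD, n = 3 each), a log2 fold change of 0.57 (edgeR adjusted p = 0.00998).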
